A study of Homo sapiens with 6 samples.

Results

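The 7 subunits of respiratory complex I that are encoded by mitochondrial DNA (mtDNA) are MT-ND1, MT-ND2, MT-ND3, MT-ND4, MT-ND4L, MT-ND5 and MT-ND6. They were selected by gene symbol from a table of 12982 genes, and all 7 were measured and tested. The table came from RNA sequencing of SW480, a human colorectal adenocarcinoma cell line whose genotype is given as WT. The cells received either DMSO, the solvent control, or MPM-1, a small fluorescent molecule designed to accumulate in mitochondria and labelled WT4 in the deposited data, for 24 h. Each group held 3 libraries of total RNA prepared with an mRNA library kit. The dose of MPM-1 used for sequencing is not given in the sources used here, nor is it stated whether the libraries of a group came from separate cultures, so p-values measure the spread between these libraries.

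Complex I (NADH:ubiquinone oxidoreductase) is the entry point for electrons from NADH into the respiratory chain and pumps protons across the inner mitochondrial membrane. Its mtDNA-encoded subunits are very hydrophobic proteins of the membrane arm, and all of its other subunits are encoded in the nucleus and imported. In mitochondria, POLRMT transcribes each mtDNA strand into a long precursor that is cut mainly at the tRNAs between the messages, so genes of the same precursor are transcribed together while their mature mRNAs can differ in abundance. MT-ND6 is the only protein-coding gene read from the light-strand promoter. The other 6 belong to the heavy-strand transcript, and MT-ND4L and MT-ND4 remain joined in the same mature mRNA.

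The positions and sequences that follow are those of GENCODE release 29 (GRCh38), in which each member is a gene with a single exon and no intron. MT-ND1 occupies chrM:3307-4262, MT-ND2 chrM:4470-5511 and MT-ND3 chrM:10059-10404, all on the plus strand of the reference. MT-ND4L (chrM:10470-10766), MT-ND4 (chrM:10760-12137) and MT-ND5 (chrM:12337-14148) lie further along the same strand. MT-ND6 (chrM:14149-14673) lies on the minus strand, and its 3′ end meets the 3′ end of MT-ND5 with 0 bases between them. A tRNA gene adjoins every member on at least 1 side.

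The light-strand message differs from the heavy-strand messages in base composition. The first 60 bases of MT-ND1, MT-ND4 and MT-ND6, from 5′ to 3′ and with each G in capitals, are shown to make this visible, with MT-ND6 read from the minus strand (chrM:14614-14673).
MT-ND1: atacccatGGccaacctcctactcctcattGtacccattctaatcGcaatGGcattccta
MT-ND4: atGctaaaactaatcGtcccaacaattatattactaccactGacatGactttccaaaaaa
MT-ND6: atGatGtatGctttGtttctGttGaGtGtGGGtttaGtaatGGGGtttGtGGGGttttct
These stretches held 6, 4 and 21 G, respectively. Over the whole message, MT-ND6 was 35.6% G and 7.05% C, whereas the 6 heavy-strand members ranged from 9.50% to 12.1% G and from 29.5% to 36.0% C.

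The reading frames of MT-ND4L and MT-ND4 overlap by 7 bases, which are in capitals in the last 27 bases of MT-ND4L (chrM:10740-10766) and the first 27 bases of MT-ND4 (chrM:10760-10786). They are shown because counts for these 2 genes come from the same molecule.
MT-ND4L: cataacctaaacctactccaATGCTAA
MT-ND4: ATGCTAAaactaatcgtcccaacaatt
The shared bases hold the stop codon of MT-ND4L and the start codon of MT-ND4. The joined frames span 1668 bases, and a read that crosses the junction can match both genes.

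The 3′ ends of the member genes differ in whether they hold a complete stop codon. In the last 18 bases of each, the capitals mark the stop codon or, where the gene ends before the stop codon is complete, its first bases.
MT-ND1: cattccccctcaaaccTA
MT-ND2: ttatactaataatcttaT
MT-ND3: gattagactgaaccgaaT
MT-ND4: ttaccgggttttcctctT
MT-ND4L: aacctactccaatgcTAA
MT-ND5: ctactcctaatcacaTAA
MT-ND6: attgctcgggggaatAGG
MT-ND1, MT-ND2, MT-ND3 and MT-ND4 end with 1 or 2 bases of a stop codon that the poly(A) tail completes, and a tRNA gene follows each of them with 0 bases between. MT-ND5 and MT-ND4L end with TAA, and MT-ND6 ends with AGG, which serves as a stop in human mitochondria.

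Depth ranged from 32095456 to 40269820 counts in the DMSO libraries and from 31733667 to 35403841 in the MPM-1 libraries. Counts of the members ranged from 1734 for MT-ND3 in MPM-1 replicate 1 to 651590 for MT-ND4 in DMSO replicate 2, so counting error was small beside the spread between libraries. All 8 colorectal epithelial markers examined were detected, led by KRT8 at 4096 ± 379 CPM (counts scaled to library depth, SD, n = 3) in DMSO and 5473 ± 446 after MPM-1. Of these 8, 4 were called higher after MPM-1 and 3 lower, beside 27.7% and 28.8% of all genes. The higher ones were KRT8, CDH1, KRT19 and KRT18 (log2 fold changes 0.42, 0.82, 0.89 and 0.89). The lower ones were CDX2 (82.5 ± 3.51 to 17.9 ± 4.33 CPM), KRT20 (11.1 ± 1.87 to 2.70 ± 0.347 CPM) and VIL1 (249 ± 12.8 to 136 ± 7.22 CPM). Of 10 markers of leukocytes, fibroblasts and endothelium, only CD14 and COL1A1 had values in the table, summing to 11.3 to 13.2 CPM in DMSO and 2.23 to 6.11 CPM after MPM-1. No value was analysed here for the other 8. The part of such cells in the results was not tested.

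All 7 members were lower after MPM-1. In the edgeR quasi-likelihood test across all genes with Benjamini-Hochberg adjustment, each had an adjusted p-value under 0.05, a call that 28.8% of all genes tested received in the lower direction and 27.7% in the higher direction. For every member, all 3 MPM-1 libraries lay below all 3 DMSO libraries, which held for 33.3% of the table. A fall of at least 1 on the log2 scale at an adjusted p-value under 0.01 was found for 6 members, all but MT-ND1, against 8.75% of all genes. The median log2 fold change was -1.77 over the 7 members and -0.03 over all genes. These libraries were made from bulk RNA, in which fewer mitochondria, fewer mtDNA copies and less RNA per copy cannot be told apart. Values scaled to library depth do not report the number of cells.

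**Figure D1:**
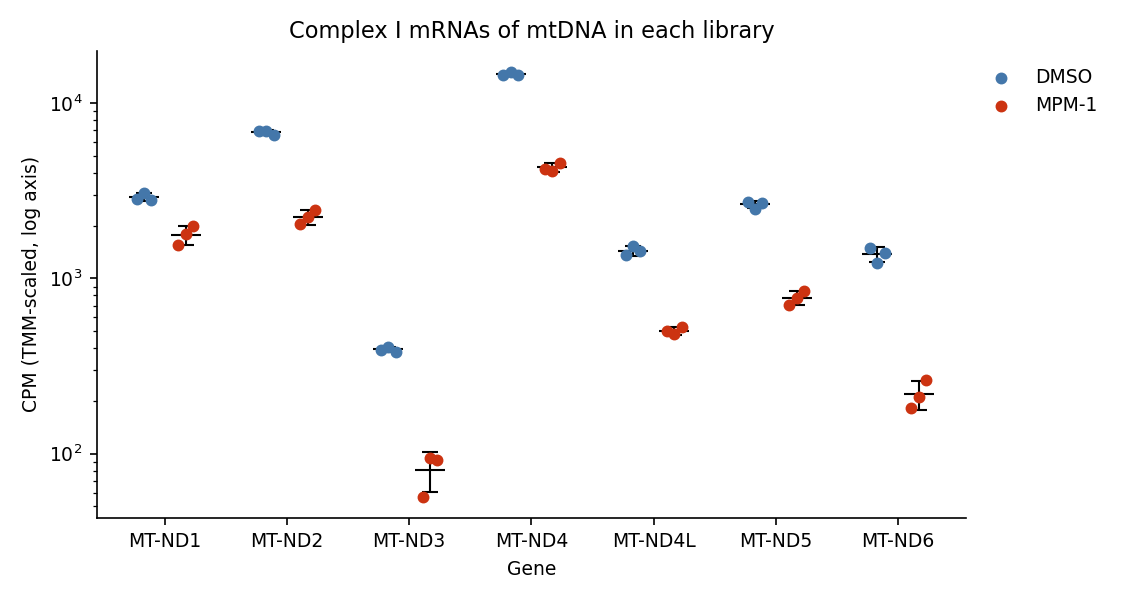
Level of each mtDNA-encoded complex I mRNA in every library, in TMM-scaled CPM on a log axis, for DMSO (blue) and MPM-1 (red); horizontal marks and bars are the mean ± SD of 3 libraries. The groups do not overlap for any of the 7 genes, and the gap is narrowest for MT-ND1 (2912 against 1777 CPM) and widest for MT-ND6 (1371 against 219 CPM).

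The members' summed counts gave their weight in each library. They held 3.11%, 3.30% and 3.16% of all counts in DMSO replicates 1, 2 and 3, and 0.862%, 0.941% and 1.02% in the MPM-1 replicates. The difference in the mean share was -2.25 percentage points (exact permutation test, two-sided, p = 0.1, the smallest p-value that 3 against 3 libraries can give). The 13 mRNAs of mtDNA together took 8.28% to 9.11% of the counts in DMSO and 1.95% to 2.35% after MPM-1. Within those mtDNA counts, the complex I members made up 35.8% to 37.5% in DMSO and 42.0% to 44.3% after MPM-1, so their portion of the remaining mtDNA messages was higher in every MPM-1 library. MT-ND1, which fell least, is part of that portion.

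MT-ND1 encodes the subunit at the heel of the membrane arm, where ubiquinone enters its binding chamber. Its level was 2856, 3092 and 2790 CPM in DMSO replicates 1, 2 and 3 and 1550, 1791 and 1990 CPM after MPM-1. The highest MPM-1 library thus lay below the lowest DMSO library, by a smaller ratio than for any other member. The log2 fold change was -0.71 (SE 0.09, edgeR adjusted p = 0.000158), which left 61.0% of the DMSO mean. Of all genes tested, 16.6% had a lower fold change than MT-ND1.

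MT-ND2, MT-ND4 and MT-ND5 encode the large antiporter-like subunits that line the membrane arm and carry its proton channels. MT-ND4, the most abundant member, measured 14495, 15088 and 14511 CPM in DMSO and 4228, 4127 and 4588 CPM after MPM-1, a log2 fold change of -1.77 (SE 0.06, edgeR adjusted p = 9.80e-08). The 3 libraries of each group lay close together, with coefficients of variation of 2.30% in DMSO and 5.62% after MPM-1, and the groups stood far apart. MT-ND2 measured 6916, 6959 and 6592 CPM in DMSO and 2033, 2238 and 2470 CPM after MPM-1, a log2 fold change of -1.60 (SE 0.08, edgeR adjusted p = 5.94e-07). MT-ND5 measured 2725, 2504 and 2713 CPM in DMSO and 710, 773 and 851 CPM after MPM-1, a log2 fold change of -1.77 (SE 0.08, edgeR adjusted p = 5.57e-07). These 3 mRNAs were left at 32.9% (MT-ND2), 29.4% (MT-ND4) and 29.4% (MT-ND5) of their DMSO means.

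MT-ND3 and MT-ND4L encode small subunits of the membrane arm, the first of which holds a loop near the ubiquinone site. MT-ND3 measured 393, 406 and 382 CPM in DMSO and 56.9, 94.3 and 91.6 CPM after MPM-1. MPM-1 replicate 1 was well below the other replicates, which gave MT-ND3 the widest spread of any member (coefficient of variation 25.7%), yet the groups stayed apart. Its log2 fold change was -2.28 (SE 0.17, edgeR adjusted p = 6.17e-06), the largest fall among the heavy-strand members. MT-ND4L measured 1353, 1532 and 1438 CPM in DMSO and 500, 479 and 532 CPM after MPM-1, a log2 fold change of -1.52 (SE 0.07, edgeR adjusted p = 6.50e-07).

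MT-ND6, the light-strand member, encodes a subunit that packs beside MT-ND3 and MT-ND4L in the membrane arm. It measured 1492, 1230 and 1391 CPM in DMSO and 183, 210 and 265 CPM after MPM-1. Every MPM-1 library was therefore several times below every DMSO library, and the mean was left at 16.0% of DMSO, a 6.26-fold fall. The log2 fold change was -2.65 (SE 0.14, edgeR adjusted p = 8.15e-07), and only 0.855% of all genes had a lower one. Whether the libraries kept strand is not given in the sources used here, and the heavy-strand precursor also crosses these positions in antisense, so without strand the reads of both cannot be told apart.

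MPM-1 replicate 1 gave the lowest CPM of its group for 5 of the 7 members, the exceptions being MT-ND4 and MT-ND4L, for which replicate 2 was lowest. Without MPM-1 replicate 1, all 7 members were still called lower.

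**Figure D2:**
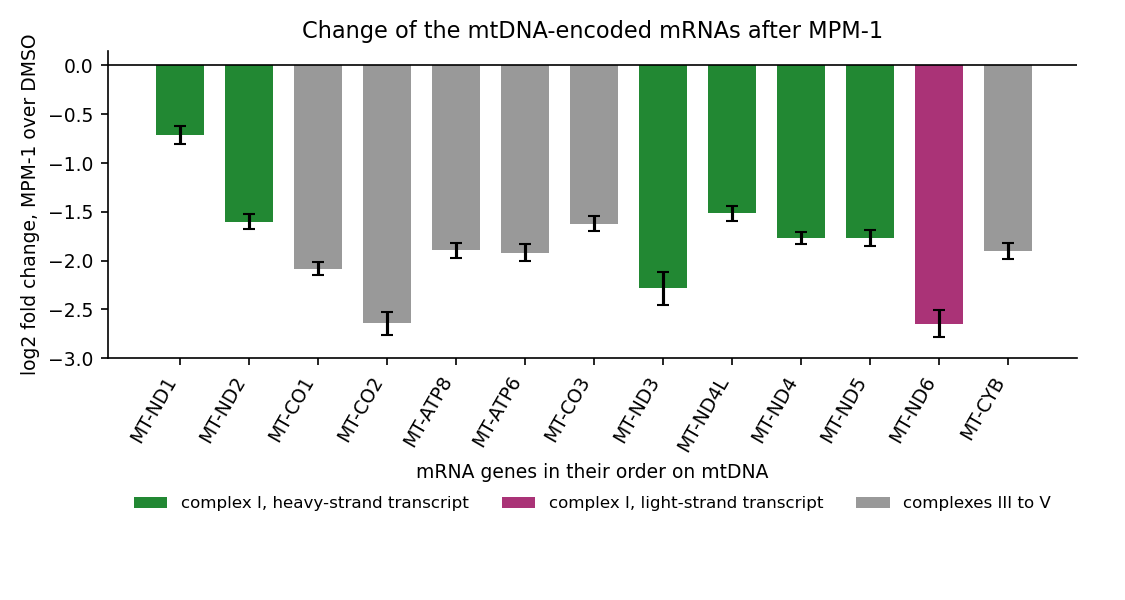
Log2 fold change (MPM-1 over DMSO, edgeR) of the 13 mRNAs of mtDNA in their order along the molecule; error bars are the standard error. All bars lie below 0, the shortest is MT-ND1 at -0.71, and the light-strand MT-ND6 at -2.65 is matched by the heavy-strand MT-CO2 at -2.64.

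The light-strand and heavy-strand members were compared within libraries, which removes the scaling between libraries. The log2 ratio of MT-ND6 counts to the summed counts of the 6 heavy-strand members was -4.27, -4.59 and -4.35 in DMSO and -5.63, -5.50 and -5.31 after MPM-1. All MPM-1 ratios lay below all DMSO ratios. With the heavy-strand sum taken as the library size, MT-ND6 changed by a log2 value of -1.08 (SE 0.13, 95% interval -1.43 to -0.73, edgeR adjusted p = 1.03e-06), a further 2.11-fold fall. On that scale 1.39% of all genes were called lower. The sum includes MT-ND1, which fell least. The log2 ratio of single heavy-strand members to MT-ND6 differed between groups by 0.34 (MT-ND3) to 1.94 (MT-ND1). For MT-ND4 and for MT-ND5 it differed by 0.89. As a portion of the members' counts, MT-ND6 went from 3.99% to 4.93% in DMSO to 1.97% to 2.46% after MPM-1.

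A fall of this size relative to the heavy-strand members was not limited to the light strand. On the same scale the heavy-strand MT-CO2, a subunit of cytochrome c oxidase, changed by -1.07 (SE 0.12). MT-ND3, itself part of the sum, changed by -0.71 (SE 0.14). Both were picked for their large falls in these same libraries, so their values are a description and no test is given. MT-ND2, MT-ND4, MT-ND4L and MT-ND5 lay between -0.19 and 0.06, small values that are partly set by the scale, since these genes form most of the sum. When the sum was taken over all 12 heavy-strand mRNAs of mtDNA, the relative change of MT-ND6 was -0.81 and it was still called. Only 1 mRNA of mtDNA is read from the light strand, so the strand and the gene cannot be told apart. How well the mRNA library kit captured each message, and any part of that in these differences, was not tested.

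The small fall of MT-ND1 was examined in the same way. Its log2 ratio to the other 5 heavy-strand members was -3.18, -3.10 and -3.20 in DMSO and -2.28, -2.11 and -2.10 after MPM-1, again without overlap. With the sum of those 5 as the library size, MT-ND1 was higher by a log2 value of 1.00 (SE 0.10). MT-ND1 was singled out because its fall in these same libraries was known to be small, so this value is a description and no test of it is given. That scale follows genes that fell steeply, and on it 91.6% of all genes were called higher, so the value describes MT-ND1 against its companions and not a rise in its level. MT-ND1 made up 9.36% to 10.0% of the members' counts in DMSO and 16.7% to 18.4% after MPM-1. The ratio of its FPKM (fragments scaled to gene length and library depth) to that of MT-ND2, the next mRNA gene along the heavy-strand transcript, was 0.450, 0.484 and 0.461 in DMSO and 0.831, 0.872 and 0.878 after MPM-1.

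MT-ND4L and MT-ND4 offered a comparison of 2 reading frames of the same mRNA. The log2 ratio of their counts was -3.42, -3.30 and -3.33 in DMSO and -3.08, -3.11 and -3.11 after MPM-1. The ratio was higher in all MPM-1 libraries, by 0.25 (exact permutation test, two-sided, p = 0.1, the smallest possible). Beside it, the relative changes of MT-ND6 (-1.08) and MT-ND1 (1.00) were larger. Between neighbours in the order of log2 fold change, all separate mRNAs, the gap ran from 0.00145 (MT-ND4 and MT-ND5) to 0.804 (MT-ND4L and MT-ND1). Part of the overlap region can be counted for both frames, and the effect of that on the ratio was not tested.

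**Figure D3:**
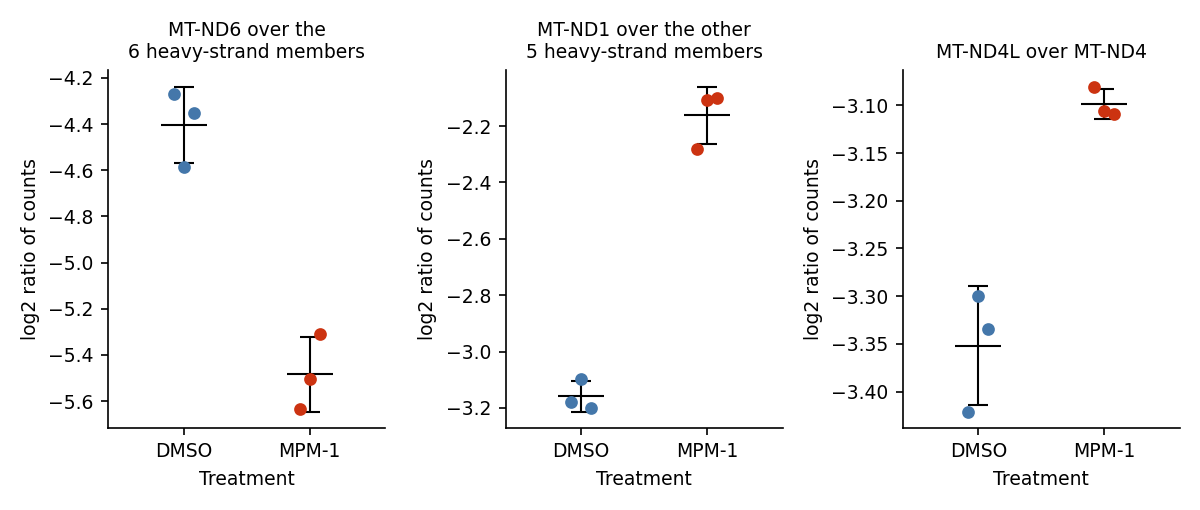
Log2 ratios of counts within each library for MT-ND6 over the 6 heavy-strand members, MT-ND1 over the other 5 heavy-strand members and MT-ND4L over MT-ND4; points are libraries, marks and bars the mean ± SD of 3, and each panel has its own axis range. The MPM-1 libraries lie below the DMSO libraries in the first panel (-5.63 to -5.31 against -4.59 to -4.27) and above them in the other panels.

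Ratios were formed for all 21 pairs of members. The DMSO and MPM-1 libraries did not overlap for 18 pairs, each with an exact two-sided permutation p = 0.1, the smallest possible (0.117 after Benjamini-Hochberg adjustment over the 21 pairs). These pairs share the same 7 genes and are not independent. The share of pairs without overlap among all genes was not computed, so the count is a description. The 3 pairs that overlapped were MT-ND2 with MT-ND4L, MT-ND3 with MT-ND6, and MT-ND4 with MT-ND5. The MT-ND3 to MT-ND6 ratio differed by 0.34 between groups on the log2 scale (exact permutation p = 0.2), so the 2 members with the largest falls were not separated from each other at this number of libraries.

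Per unit of length, the order of the members changed. In DMSO the FPKM of MT-ND4 was highest (10890 ± 410, SD, n = 3), followed by MT-ND2 (6683 ± 199), MT-ND4L (4957 ± 393), MT-ND1 (3111 ± 202), MT-ND6 (2663 ± 215), MT-ND5 (1491 ± 58.0) and MT-ND3 (1161 ± 45.2). No neighbours in this order overlapped. After MPM-1, MT-ND4 (2874 ± 156 FPKM) and MT-ND2 (1981 ± 209 FPKM) still led, but MT-ND1 (1708 ± 228 FPKM) stood above MT-ND4L (1556 ± 74.0 FPKM), and MT-ND5 (394 ± 39.0 FPKM) above MT-ND6 (383 ± 75.0 FPKM), with MT-ND3 (215 ± 58.5 FPKM) last. Here the ranges of MT-ND2 and MT-ND1, of MT-ND1 and MT-ND4L, and of MT-ND5 and MT-ND6 overlapped. Within libraries, MT-ND2 was nevertheless above MT-ND1 in all 3, whereas MT-ND1 was above MT-ND4L, and MT-ND5 above MT-ND6, in 2 of 3.

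The members held high places among all genes in DMSO. By mean FPKM, MT-ND4 ranked 5 and MT-ND3, the lowest member, ranked 72 in the table. After MPM-1 they ranked 22 and 325, and MT-ND6 went from 33 to 209. Of 84 genes whose DMSO mean reached 1000 FPKM, 13 were mtDNA mRNAs. Of the other 71, 10 were called lower and 42 higher, beside 28.8% and 27.7% of all genes. Their median log2 fold change was 0.28 and the lowest value -0.98. A part of expression level in the members' fall was not tested.

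The 6 remaining mRNAs of mtDNA, which encode subunits of complexes III to V, were all lower as well and did not overlap between groups. Their log2 fold changes were -2.08 for MT-CO1, -2.64 for MT-CO2, -1.62 for MT-CO3, -1.90 for MT-CYB, -1.92 for MT-ATP6 and -1.89 for MT-ATP8. The complex I members, at -2.65 to -0.71, reached as low as MT-CO2. At the other end, MT-ND2 (-1.60, SE 0.08) was within 1 SE of MT-CO3 (SE 0.08), MT-ND4L (-1.52, SE 0.07) was slightly above it, and MT-ND1 lay far above. Across the 12 heavy-strand mRNAs, Pearson's r of the fold change was 0.11 with gene length and -0.20 with order on the map, and across the 6 heavy-strand members alone it was 0.10 and -0.64, given as a description since these genes share their libraries and precursor. The mtDNA-encoded rRNAs were not analysed here.

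The nuclear partners of the members had a median log2 fold change of -0.27. Of 37 nuclear subunits of complex I, 18 were lower, 2 higher and 17 not called, beside 28.8% of all genes called lower and 27.7% higher. With scaling by library size alone, 28 were lower and 1 higher and their median was -0.42, beside 37.5% and 19.9% of all genes. Among the 7 core subunits, 5 fell. NDUFV1, which binds NADH and the flavin, went from 238 ± 16.6 to 118 ± 3.04 CPM (log2 fold change -1.01), and NDUFS7, which holds the last iron-sulfur cluster, from 171 ± 15.3 to 94.1 ± 1.16 CPM (-0.86). Of the 30 supernumerary subunits, which surround the core, 13 fell and 2 rose. The largest falls were those of NDUFB7 (-0.89), the acyl carrier protein NDUFAB1 (-0.72) and NDUFC2 (-0.72), and the rises those of NDUFA6 (0.33) and NDUFA12 (0.43). NDUFV1 was the only nuclear subunit to fall by at least 1 on the log2 scale, and no nuclear subunit fell as far as MT-ND2, MT-ND3, MT-ND4, MT-ND4L, MT-ND5 or MT-ND6. MT-ND1, at -0.71, was passed by NDUFV1, NDUFB7, NDUFS7, NDUFAB1 and NDUFC2.

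**Figure D4:**
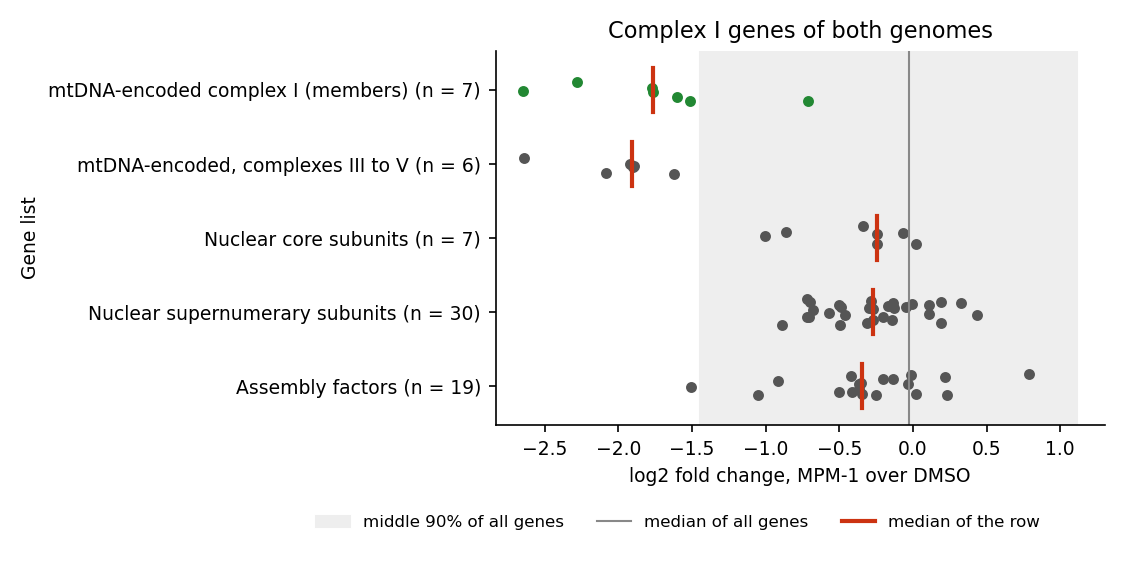
Log2 fold change (MPM-1 over DMSO) of the mtDNA-encoded complex I members, the other mtDNA mRNAs, and the nuclear core subunits, supernumerary subunits and assembly factors of complex I; each point is a gene, red marks are medians of a row, the grey band holds the middle 90% of all genes (-1.45 to 1.11) and the grey line their median. Of the members, 6 lie below the band and MT-ND1 inside it, while the nuclear subunits all lie inside it.

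Assembly factors, which help to build the membrane and matrix arms and are not counted as subunits of the finished enzyme, had 10 of 19 members lower (52.6%), 2 higher (10.5%) and 7 not called, beside 28.8% of all genes lower and 27.7% higher (median log2 fold change -0.34). TMEM186 went from 15.0 ± 2.19 to 5.29 ± 2.93 CPM (-1.51), ECSIT from 79.0 ± 9.15 to 38.1 ± 2.66 CPM (-1.05) and FOXRED1 from 51.6 ± 1.28 to 27.3 ± 1.22 CPM (-0.92). NDUFAF2 rose from 27.2 ± 1.00 to 47.0 ± 4.26 CPM (0.79) and TMEM126B from 41.7 ± 1.90 to 48.9 ± 3.18 CPM (0.23). TMEM186 and ECSIT belong to the complex that assembles the part of the membrane arm around MT-ND2, as does TMEM126B. They were named for the size of their change, and the other factors of that complex are not reported here.

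The genes that transcribe mtDNA had 2 of 8 members lower and 6 not called (median log2 fold change -0.27), a share of 25.0% lower that is close to the 28.8% of all genes. TFAM, which packages mtDNA and opens its promoters, went from 39.7 ± 4.57 to 21.6 ± 0.517 CPM (-0.88), and TFB2M, which melts the promoter with the polymerase, from 37.6 ± 1.30 to 30.4 ± 0.550 CPM (-0.31). POLRMT, the RNA polymerase, measured 87.2 ± 4.20 CPM in DMSO and 92.0 ± 3.18 CPM after MPM-1 and was not called. Among 10 genes of mtDNA replication, 5 were lower and 1 higher, beside 28.8% and 27.7% of all genes (median -0.44), with falls of the helicase TWNK (-1.46), the exonuclease MGME1 (-1.28) and the topoisomerase TOP1MT (-0.55) and a rise of RNASEH1 (0.28). mtDNA copy number was not measured.

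Genes of mitochondrial RNA processing and stability had 9 of 22 members lower (40.9%) and 4 higher (18.2%), beside 28.8% and 27.7% of all genes (median log2 fold change -0.16). TRMT10C, a subunit of the RNase P that cuts the precursors at the 5′ ends of tRNAs, went from 37.2 ± 6.73 to 11.6 ± 6.73 CPM (-1.68), with 5.05, 18.5 and 11.3 CPM in MPM-1 replicates 1, 2 and 3. FASTKD3 (-1.45) and FASTKD1 (-0.94), RNA-binding proteins of the mitochondrial matrix, fell too. LRPPRC, which stabilizes the heavy-strand mRNAs, rose from 185 ± 14.1 to 229 ± 3.96 CPM (0.31), the RNA helicase SUPV3L1 from 38.1 ± 2.02 to 52.2 ± 2.32 CPM (0.45), and the oligoribonuclease REXO2 from 46.6 ± 2.83 to 108 ± 2.30 CPM (1.21). Each of these named changes passed the edgeR test at an adjusted p-value under 0.05.

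Across the 6 libraries, the 5 genes outside mtDNA whose log2 CPM was most like the mean of the heavy-strand members were CTU2, TICRR, C2orf72, ACSF2 and NAT8L, with Pearson's r from 0.999 to 1.00. The members themselves had r from 0.980 (MT-ND1) to 1.00 (MT-ND2), MT-ND6 included at 0.996. All of them but MT-ND6 are part of that mean, which raises their r. The 6 points form 2 groups that differ in level, and 195 of 12969 genes reached an r of 0.99. The size of the change varied among these 5: CTU2 changed by -0.44 and C2orf72 by -3.05 on the log2 scale.

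Nuclear DNA holds copies of mtDNA genes, 394 of them in GENCODE release 29, and these were not analysed here. Over at least 150 aligned bases, the number of such copies with 95% identity or more was 1 each for MT-ND1, MT-ND2, MT-ND4 and MT-ND6 and 0 for MT-ND3, MT-ND4L and MT-ND5. The closest full-length copy, of MT-ND2, matched it at 98.4% of 1042 bases. How reads that match both a member and a copy were assigned is not given in the sources used here. The part of such reads in the members' absolute levels was not tested.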

How the data were processed

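RNA sequencing of 6 SW480 libraries (3 DMSO, 3 MPM-1) was examined. The authors deposited counts and FPKM per gene in the same table, and its columns of the authors' own comparison (fold change and false discovery rate) were not used. The submitters' processing notes name HISAT2, DESeq2 and the build mm10, a mouse build, although all 12127 Ensembl identifiers are human and in GENCODE release 29. The counting tool, strand setting and treatment of multiply mapped reads are not given in the sources used here. The other 855 rows are newly assembled genes.

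Counts were tested with edgeR 4.0.16 in R 4.3.3 (TMM scaling, glmQLFit and glmQLFTest, two-sided, Benjamini-Hochberg over 12982 genes, adjusted p-value under 0.05). The low-count filter removed 0 genes. CPM are TMM-scaled and FPKM are as deposited. Standard errors are the fold change over the root of the F statistic, with 95% intervals on 4 degrees of freedom. For ratios between members, the same test was run with the summed counts of the reference members as library size. Alternatives used DESeq2 1.42.0 and limma 3.58.1, the latter on log2(FPKM + 1) and log2(FPKM + 0.1) for the 11497 genes averaging 1 FPKM or more. Low genes change less on this scale than they do in FPKM. Nuclear copies were aligned with blastn 2.17.0. The edgeR scripts were tested on simulated data.

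In each list outside mtDNA, the 3 largest rises and the 3 largest falls among called genes were named, with POLRMT added after its value was seen, and some are not reported here. The members and the lists were chosen with earlier results of these data known.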

Additional observations from a re-analysis of the deposited data

How the results depend on the processing

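All 7 members were called lower under each of the 15 other scalings, filters, tests and left-out libraries, and 6 under the stricter rule (adjusted p-value under 0.01 plus a change of 1 log2 unit or more). Of those 15, the setting without a low-count filter repeats the reported fit, since that filter removed 0 genes. Their median log2 fold change, -1.77 as reported, was -1.92 with library size alone, -1.92 with limma on log2(FPKM + 0.1) and -1.92 with limma on log2(FPKM + 1). The median of all genes moved in the same direction, from -0.03 to -0.18, -0.15 and -0.13, respectively, and with library size alone 37.5% of all genes were called lower and 19.9% higher. Leaving out each library gave a median of -1.80 to -1.69, a relative change of -1.17 to -1.01 for MT-ND6 and 0.97 to 1.06 for MT-ND1, 17 to 20 nuclear subunits called, 0.22 to 0.28 for MT-ND4L over MT-ND4 and -2.29 to -2.19 percentage points for the members' share. The nuclear subunits called, 20 as reported, were 1 under the stricter rule and 29 with library size alone (28 lower). With FPKM in place of counts, the difference in the members' share was -3.61 percentage points. Deviations of log2 CPM from the group mean correlated by 0.02, 0.11 and -0.07 between DMSO and MPM-1 replicates of the same number. Between replicates of different numbers they correlated by -0.13 to 0.11, so the numbers were not taken to pair the libraries. With a replicate block, 7 members were called, the median was -1.77, and the relative changes were -1.08 for MT-ND6 and 1.00 for MT-ND1. Comparisons with exact tests of 3 against 3 libraries cannot pass 0.05, and their p-values say nothing about stability.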
